A study of Mus musculus with 40 samples.

Results

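CD11b+ cells sorted from brains bearing human U87-MG gliomas in nude mice were compared with CD11b+ cells from brains bearing murine GL261 gliomas in C57BL/6 mice. All animals of this comparison had received vehicle and were sampled 21 days after implantation. The 2 groups were taken by their labels and held 3 samples each, 6 of the 40 samples of the series. The U87-MG group came from male Athymic Nude-Foxn1nu mice whose right striatum had received RFP-tagged U87-MG cells, an established human glioblastoma line. The GL261 group came from male C57BL/6J mice injected with tdTomato- and luciferase-expressing GL261 cells, a murine glioma line that grows in immunocompetent C57BL/6 hosts. Hosts were 10 to 12 weeks old, the vehicle was water delivered into the tumor by an osmotic pump, and each sample pooled CD11b+ cells of 2 animals from the tumor-bearing hemisphere. Nude mice lack a thymus and mature T cells but keep B, NK and myeloid cells. As a reference level, 3 samples of CD11b+ cells from naïve C57BL/6 mice, deposited in the table of the GL261 samples, were used.

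Tumor line, its species, host strain, T cell status and deposited table changed together between the groups, so their parts in any difference cannot be told apart. The tables had been normalized separately. For that reason no p-value is given across them. Values are RPKM, read numbers divided by gene length and by library total, after removal of a constant of 2 that the deposited values carry, and after one common scaling of the 6 samples. Differences are means of log2(RPKM + 1) in the U87-MG group minus those in the GL261 group, with a standard error from the spread within both groups. On this scale the change of weakly expressed genes is understated. A gene was called higher or lower where the difference was at least 1 and the 3 samples of one group lay entirely above or below those of the other. Separate cultures or operations behind the replicates are not described beyond the pooling of animals, so the errors cover only the spread between these samples.

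CD11b is the αM integrin subunit that marks microglia, monocytes, macrophages and neutrophils. In a healthy brain nearly all CD11b+ cells are microglia, which are seeded in the embryo, depend on CSF1 receptor and TGF-β signaling, and are known by genes such as P2ry12, Tmem119 and Sall1. Gliomas add monocytes from blood that enter through CCR2 and mature into macrophages and dendritic cells. Interferon-γ, made mainly by T and NK cells, acts through the kinases JAK1 and JAK2 and induces chemokines, guanylate-binding proteins and the MHC genes by which myeloid cells present antigen.

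Of 21826 protein-coding genes in both tables, 9725 had a mean of at least 1 RPKM over the 6 samples. Among these, 814 genes (8.37%) were called higher and 1083 genes (11.1%) lower in the U87-MG group, 1897 (19.5%) in all. Every count of list members below is to be read beside these shares, and in short lists a few calls can lie near them. The median difference over all 9725 genes was 0.01. Without the minimum difference, the groups did not overlap in 7271 genes (74.8%), so separation of the samples alone is the rule in this comparison and not the exception. Pearson's r between samples across these genes was 0.990 to 0.992 within the U87-MG group, 0.990 to 0.993 within the GL261 group and 0.803 to 0.847 between the groups, where genes are not independent replicates. Mitochondrial genes took 2.101% to 2.48% of the summed RPKM in the U87-MG group and 0.984% to 1.11% in the GL261 group. Ribosomal protein genes took 5.77% to 6.65% and 6.30% to 6.59%, and the number of genes at 1 RPKM or more was 9626 to 9687 against 9349 to 9405. The median difference ran from -0.29 in the shortest decile of genes by exonic length to 0.11 in the longest decile. Deposited values under the constant, which a plain RPKM cannot give, made up 8.42%, 8.78% and 3.61% of the values in U87-MG columns 1, 2 and 3, against 5.995% to 6.71% in the GL261 group. The part of these measures in the results was not tested. Depth cannot be read from these values, since the files used here hold no counts. GL261 replicate 3 was the lowest of its group in several genes of alternative activation, whose differences are given with and without it.

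**Figure D1:**
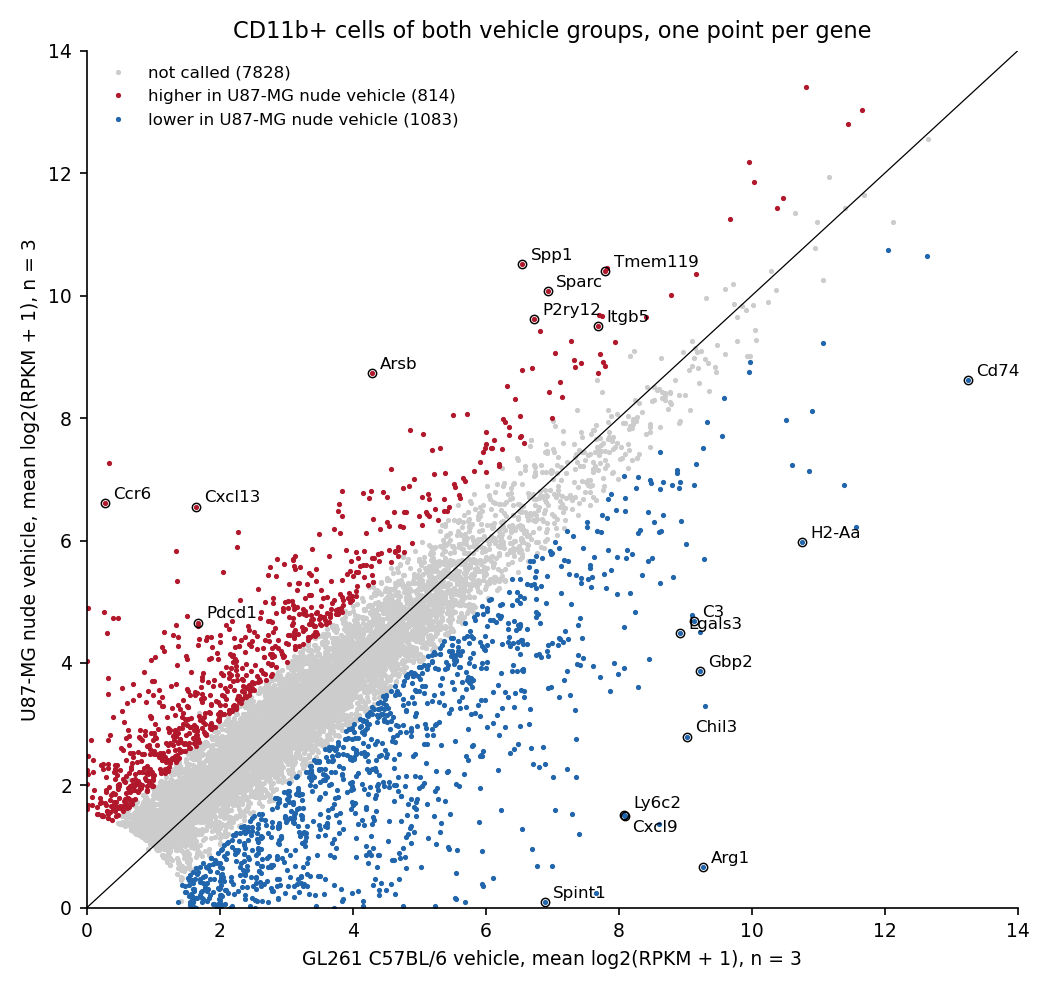
Mean log2(RPKM + 1) of each of the 9725 genes in the GL261 group (horizontal axis) and the U87-MG group (vertical axis), 3 samples each. The 814 genes called higher in the U87-MG group are red, the 1083 called lower are blue, the 7828 others are gray, and some of the genes named in the text are circled. Arg1, Cxcl9 and Ly6c2 lie far below the line of equal values, and Spp1, Ccr6 and Cxcl13 lie far above it.

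The sort and the cell type were checked first. Itgam, which encodes CD11b itself, measured 177, 191 and 155 RPKM in the U87-MG group and 65.4, 53.4 and 65.9 RPKM in the GL261 group. Every U87-MG sample was thus above every GL261 sample, with a difference of 1.49 ± 0.13 (SE, n = 3 and 3). The pan-leukocyte gene Ptprc (CD45) had a mean of 30.04 ± 2.29 RPKM (SD, n = 3) in the U87-MG group and 48.9 ± 7.75 RPKM (SD, n = 3) in the GL261 group, a difference of -0.68 that was not called. Of the 11 general myeloid genes, 2 were called higher (Itgam and the CSF1 receptor gene Csf1r) and 1 lower (Fcer1g, the common Fc receptor γ chain), and their median difference was -0.04. Of 15 listed T cell genes 13 are annotated as protein-coding, and none of these reached the mean of 1 RPKM. The others were not put to the filter. Cd3e, a T cell receptor subunit, was listed at 0 in 2 of the U87-MG samples and at 0.000918 RPKM in the third, and at 0, 0.185 and 0.374 RPKM in the GL261 group. Summed over the 13 T cell genes annotated as protein-coding, the level was 1.31 to 1.76 RPKM in the U87-MG group and 1.495 to 7.09 RPKM in the GL261 group. The Y-linked gene Ddx3y had means of 8.35 ± 0.701 RPKM and 7.83 ± 0.869 RPKM (SD, n = 3 each), and all 4 sex-linked genes tested were not called. Foxn1, the gene mutated in nude mice, acts in the thymus and was listed at 0 in all samples of both groups, so it checks nothing here.

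Homeostatic microglial genes were higher in the U87-MG group: 15 of 18 members were called higher and none lower, with a median difference of 2.15, beside 8.37% of all genes called higher and a median of 0.01. P2ry12, the purinergic receptor of ramified microglia (GRCm38, chromosome 3, 59216272 to 59262871), measured 752, 977 and 661 RPKM in the U87-MG group and 114, 78.3 and 129.5 RPKM in the GL261 group. That is 7.42 times as much on average (difference 2.89 ± 0.27), and the groups were far from overlapping. Tmem119, a microglial surface protein, measured 1359, 1585 and 1130.3 RPKM against 253, 162 and 265 RPKM, a difference of 2.598 ± 0.27. Sall1, a transcription factor that holds microglial identity, had means of 116 ± 15.3 RPKM and 26.2 ± 2.65 RPKM (SD, n = 3 each). The fractalkine receptor gene Cx3cr1 was 6.17 times as high in the U87-MG group, and the matricellular protein gene Sparc had the largest difference of the list at 3.14 ± 0.28. The 3 members not called were Slc2a5, Crybb1 and Gpr84, named after their values were seen, with differences of 0.90, 0.75 and 0.67. In every one of the 18 genes the difference was above 0.

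The naïve C57BL/6 samples showed where these levels lay. P2ry12 stood at 1607 ± 28.4 RPKM (SD, n = 3) in naïve mice, above both glioma groups. In the table that holds both, GL261 vehicle samples had 4.08 ± 0.17 less P2ry12 than naïve samples on the log2 scale (SE; adjusted p = 1.63e-07, limma). All 18 microglial genes were lower in the GL261 group than in naïve samples by this test (adjusted p below its threshold of 0.05), in a comparison where 48.2% of the 9722 genes tested were lower and 34.6% higher, 82.9% in all. The median change over these genes was -0.14 in the values as deposited and 0.01 after median-of-ratios scaling, and with that scaling 3975 genes were higher and 3909 lower. No naïve nude sample was analysed here, so the same test could not be run for the U87-MG group. In bulk samples such as these, fewer cells of a type and less RNA per cell cannot be told apart.

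Genes of monocytes and monocyte-derived cells were lower in the U87-MG group, with 16 of 18 called lower, none higher and a median difference of -2.604, against 11.1% of all genes called lower. Ly6c2, which encodes the Ly6C antigen of inflammatory monocytes, measured 1.45, 2.42 and 1.66 RPKM in the U87-MG group and 189, 315 and 338 RPKM in the GL261 group. The GL261 mean was 152 times the U87-MG mean, and the naïve mean was 1.28 ± 0.401 RPKM (SD, n = 3). Ly6i, its neighbor in a cluster of near-identical Ly6 genes on chromosome 15, gave 1.24, 1.74 and 1.78 RPKM against 267, 477 and 455 RPKM, though reads of such copies may be split between them. Plac8 averaged 21.99 ± 3.69 RPKM and 615 ± 172 RPKM (SD, n = 3 each). Ccr2, the receptor by which monocytes leave the marrow and enter tissue, measured 17.5, 18.5 and 21.5 RPKM in the U87-MG group and 86.4, 69.7 and 98.4 RPKM in the GL261 group. Its difference of -2.08 ± 0.17 was thus much smaller than that of Ly6c2. The naïve level of Ccr2 was 5.37 ± 0.0951 RPKM (SD, n = 3). Not called were F13a1 (-0.35) and the fibronectin gene Fn1 (0.19), both named after their values were seen. Fn1 averaged 225 ± 42.6 RPKM and 198 ± 38.8 RPKM in the 2 groups and 3.12 ± 0.507 RPKM in naïve samples (SD, n = 3 each).

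**Figure D2:**
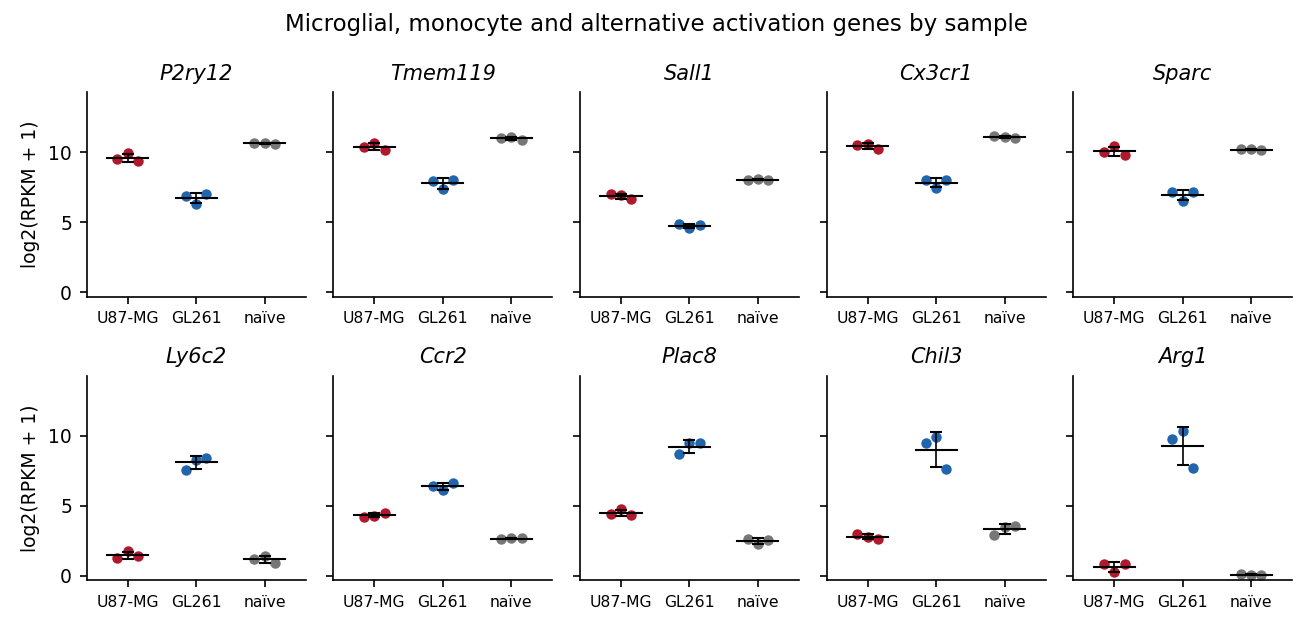
Levels of 10 genes in each sample, as log2(RPKM + 1). Points are the 3 samples of the U87-MG nude vehicle (red), GL261 C57BL/6 vehicle (blue) and naïve C57BL/6 (gray) groups, with mean and SD in black. In the top row the mean of the U87-MG samples lies between the GL261 and naïve means, and in the bottom row the GL261 samples lie above both others.

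Markers of other cells that a CD11b gate can hold differed less evenly. Of 10 border-associated macrophage genes that passed the filter, 4 were called higher and 1 lower, and this count rested on single samples. It was 2 higher and 1 lower without U87-MG column 1, 2 higher and 2 lower without column 3, 6 higher and 1 lower without GL261 replicate 1, and 3 each way without GL261 replicate 3. Cbr2 measured 21.8, 18.0 and 22.04 RPKM in the U87-MG group and 5.93, 1.86 and 1.20 RPKM in the GL261 group. Lyve1, a hyaluronan receptor of perivascular macrophages, was higher by 1.27 ± 0.18 but did not pass the filter on low values when any one U87-MG column was left out, and Ms4a7 was lower by the call rule with a difference of -1.83 ± 0.25. For neutrophils, 5 of 11 genes were called lower (4 to 6 with one sample left out) and 1 higher. The neutrophil marker Ly6g did not reach 1 RPKM on average. In 10 of the 11 genes the difference was below 0, with a list median of -0.96 (-1.27 to -0.60 with one sample left out). The list's summed RPKM of 270.5 to 275 in the U87-MG group lay within the 145 to 291 of the GL261 group. Such a sum is set mostly by its strongest members and does not show equal numbers of neutrophils. Ngp, a granule protein gene, averaged 1.92 ± 1.81 RPKM and 10.6 ± 3.31 RPKM, beside 48.5 ± 14.8 RPKM in naïve samples (SD, n = 3 each). For dendritic cells, 5 of 7 genes were called lower and 1 higher. Ccr7, the receptor that leads dendritic cells to lymph nodes, measured 0.150, 0.684 and 0.665 RPKM in the U87-MG group and 38.5, 49.6 and 51.0 RPKM in the GL261 group. The chemokine gene Ccl22 and the lectin gene Cd209a were lower too, by differences of -3.95 ± 0.18 and -2.02 ± 0.32, whereas Siglech, the 1 member called higher, is also a microglial gene and stood in that list. Of 6 NK cell genes that passed, 1 was called lower (Klrd1, difference -1.62 ± 0.13), beside 11.1% of all genes. The cytotoxic granule gene Gzmb measured 2.58, 1.23 and 3.88 RPKM against 3.12, 9.23 and 7.04 RPKM, which overlap. Summed NK gene levels were 9.17 to 26.1 RPKM and 13.8 to 33.0 RPKM. The part of these cells in the results was not tested.

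Genes of MHC class II presentation were lower in the U87-MG group, with 8 of 10 called lower, 1 higher and a median difference of -3.48. H2-Aa and H2-Ab1 encode the 2 chains of the I-A molecule. H2-Aa measured 55.4, 70.9 and 59.9 RPKM in the U87-MG group and 1612, 1793 and 1809 RPKM in the GL261 group, 28.0 times as much on average (difference -4.79 ± 0.12). For H2-Ab1 the difference was -5.33 ± 0.14, the largest of the list. Cd74, the invariant chain that guides class II through the cell, measured 380.5, 423 and 376 RPKM against 9122, 10235 and 10017 RPKM, and was the strongest of these genes in both groups. Naïve samples had 481 ± 36.9 RPKM of Cd74 and 80.0 ± 6.16 RPKM of H2-Aa (SD, n = 3 each), so the U87-MG samples lay slightly below the naïve level in both genes. Within the table of the GL261 and naïve samples, H2-Aa was higher in the GL261 group by 4.26 ± 0.08 (adjusted p = 6.76e-09, limma). Ciita, the coactivator that switches class II genes on, averaged 1.90 ± 0.220 RPKM and 43.4 ± 5.74 RPKM (SD, n = 3 each). H2-Ob, a chain of the inhibitor of peptide loading H2-O, was the only member called higher, with 20.2, 19.0 and 16.1 RPKM against 4.28, 3.03 and 4.56 RPKM. Its partner chain H2-Oa was lower, with a difference of -2.30 ± 0.23.

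Interferon-γ response genes had a median of -3.65, with 25 of 29 called lower and none higher. Cxcl9, a chemokine that attracts CXCR3+ lymphocytes, measured 4.10, 1.40 and 0.896 RPKM in the U87-MG group and 211, 235 and 393 RPKM in the GL261 group. The difference was -6.57 ± 0.51 and the groups did not approach each other. Gbp2, a guanylate-binding protein of cell-autonomous defense, measured 14.7, 12.6 and 13.3 RPKM against 391, 739.9 and 736 RPKM. Ifi47 and Serpina3g, an immunity-related GTPase and a cysteine protease inhibitor, were lower by differences of -5.23 ± 0.25 and -6.32 ± 0.41. Among the genes of signaling itself, the kinase gene Jak2 was lower with a difference of -2.58, while the receptor genes Ifngr1 and Ifngr2 and the kinase gene Jak1 were not called, with differences of 0.95, -0.06 and 0.07. These 4 genes, and Irf8 at -0.11, are named after their values were seen. Ifngr1 lay near the limit and was called higher without U87-MG column 3 (1.03) or GL261 replicate 1 (1.05). Gbp2, Serpina3g and Ifi47 belong to families of similar genes between which reads may be split. In naïve samples Cxcl9 was at 0.402 ± 0.183 RPKM (SD, n = 3), and the GL261 group exceeded it by 7.52 ± 0.22 (adjusted p = 3.37e-08, limma).

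Promoters of Cxcl9, Gbp2, H2-Aa and H2-Eb1, all called lower, are shown with the letters that stand for binding sites of the 2 pathways. In the RefSeq windows (build GRCm38.p6, from 250 bases before to 50 bases after each gene start, given on the strand of the gene), capitals mark matches on either strand to the interferon-stimulated element GAAANNGAA, the γ-activated site TTCNNNGAA and the class II Y box CTGATTGG. The Cxcl9 window lies at chr5:92328030-92328329 on the minus strand, that of Gbp2 at chr3:142620413-142620712 on the plus strand, that of H2-Aa at chr17:34287774-34288073 on the minus strand and that of H2-Eb1 at chr17:34305617-34305916 on the plus strand.
Cxcl9: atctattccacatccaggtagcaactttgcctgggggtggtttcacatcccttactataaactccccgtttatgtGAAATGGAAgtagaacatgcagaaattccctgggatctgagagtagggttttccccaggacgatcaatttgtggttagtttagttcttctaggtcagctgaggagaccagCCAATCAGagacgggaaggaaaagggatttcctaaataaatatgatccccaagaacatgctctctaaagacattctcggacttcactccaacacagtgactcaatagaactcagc
Gbp2: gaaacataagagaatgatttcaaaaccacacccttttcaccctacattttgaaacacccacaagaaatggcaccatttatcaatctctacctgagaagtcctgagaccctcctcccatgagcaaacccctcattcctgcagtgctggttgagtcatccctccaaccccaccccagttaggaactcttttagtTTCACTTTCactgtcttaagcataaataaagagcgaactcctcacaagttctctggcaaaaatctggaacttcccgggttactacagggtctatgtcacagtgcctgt
H2-Aa: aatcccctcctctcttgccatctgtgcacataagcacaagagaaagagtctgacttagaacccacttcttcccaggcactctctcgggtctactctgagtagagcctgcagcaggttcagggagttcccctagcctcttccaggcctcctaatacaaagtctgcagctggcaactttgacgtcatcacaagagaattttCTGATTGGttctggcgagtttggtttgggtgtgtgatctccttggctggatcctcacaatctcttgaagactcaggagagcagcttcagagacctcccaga
H2-Eb1: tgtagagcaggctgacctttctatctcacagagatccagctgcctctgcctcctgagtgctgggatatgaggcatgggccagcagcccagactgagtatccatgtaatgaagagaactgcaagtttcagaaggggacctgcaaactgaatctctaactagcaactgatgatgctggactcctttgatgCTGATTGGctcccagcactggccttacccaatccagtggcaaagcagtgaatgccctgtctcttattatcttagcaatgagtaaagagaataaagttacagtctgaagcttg

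In Cxcl9 the capitals are an interferon-stimulated element that starts 175 bases before the gene start and a reverse Y box 65 bases before it. The Gbp2 match is an interferon-stimulated element read on the opposite strand that starts 58 bases before the gene start, and the H2-Aa and H2-Eb1 matches are Y boxes that start 51 and 62 bases before it. Windows were found for 17 of the 25 interferon-γ genes called lower. The interferon-stimulated element was in 13 of them (76.5%) and the γ-activated site in 8 (47.1%), where 9.76% and 9.55% of all 27025 gene symbols with a window held these letters. Among 5 of the 8 class II genes called lower that had a window, 3 (60.0%) held the Y box, against 4.70% of all, and none held either interferon motif. The lists were made up of genes that answer to these pathways, so such shares describe the lists and say nothing about the difference between the groups. Several windows belong to related genes with the same pair of sites, such as Igtp, Irgm2, Tgtp1 and Tgtp2, and are not independent. A match is a stretch of letters, and it was not tested for binding.

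MHC class I and peptide loading genes followed with 16 of 20 called lower, none higher and a median of -2.20. B2m, the light chain of every class I molecule, measured 1564, 1709 and 1566 RPKM in the U87-MG group and 5704, 6566 and 6936 RPKM in the GL261 group, a difference of -1.99 ± 0.09. Tap1, a subunit of the peptide transporter, averaged 16.5 ± 0.904 RPKM and 168 ± 30.3 RPKM (SD, n = 3 each), and the class I coactivator Nlrc5 was lower with a difference of -3.12 ± 0.20. The nonclassical genes H2-Q6 and H2-Q7 had the largest differences at -3.94 ± 0.27 and -4.07 ± 0.33, but they are near-identical copies whose reads may be exchanged. Reads of both hosts were aligned to the genome of C57BL/6J, and the part of host strain in the H2 values cannot be told apart from that of the tumor. The 4 members not called were Erap1 and the general endoplasmic reticulum chaperones Calr, Canx and Pdia3, with differences between -0.51 and 0.53.

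Type I interferon response genes were called lower in 23 of 27 and higher in 1, with a median of -2.77. Irf7, the factor that amplifies the response, measured 9.62, 22.2 and 18.0 RPKM in the U87-MG group and 290.0, 394 and 379.6 RPKM in the GL261 group. Isg15, a ubiquitin-like protein, averaged 26.9 ± 6.39 RPKM and 551 ± 87.8 RPKM, and the naïve level was 6.57 ± 0.750 RPKM (SD, n = 3 each), so the U87-MG samples lay between. Oas3 and Rsad2, both antiviral enzymes, were lower with differences of -4.62 ± 0.28 and -3.94 ± 0.27. The exception was Ifi44, with 7.24, 19.9 and 15.7 RPKM in the U87-MG group and 4.32, 5.59 and 6.17 RPKM in the GL261 group, and it was not called without U87-MG column 2 (0.89). Its homolog and neighbor on chromosome 3, Ifi44l, measured 8.98, 24.6 and 16.4 RPKM in the U87-MG group and was listed at 0 in every GL261 and naïve sample.

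**Figure D3:**
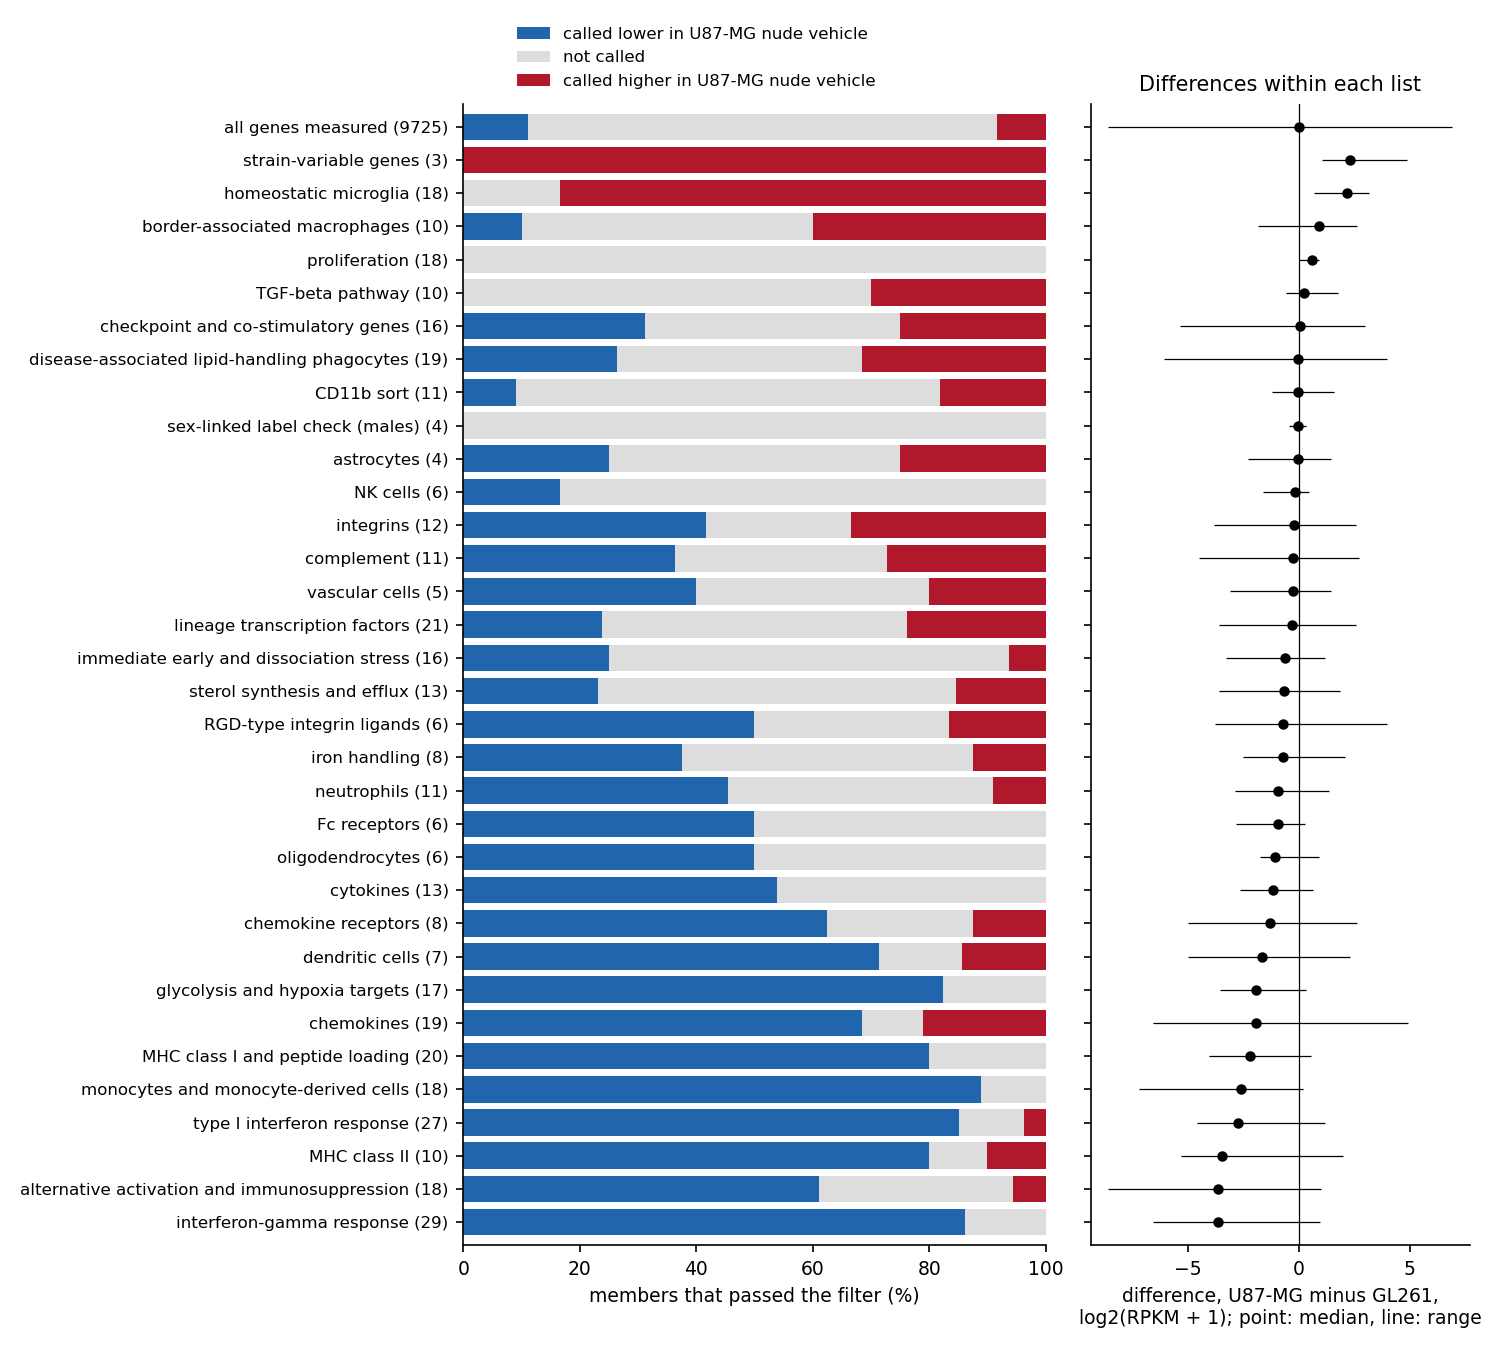
Left, share of the members of each gene list that were called lower (blue), not called (gray) or called higher (red) in the U87-MG group, with the number of members that passed the filter in brackets; all 9725 genes are shown at the top. Right, median difference (point) and range (line) of each list on the log2(RPKM + 1) scale. The interferon-γ and alternative activation lists have medians of -3.65 and -3.64 and the homeostatic microglia list stands at 2.15.

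Alternative activation and immunosuppression genes had 11 of 18 members called lower and 1 higher, with a median of -3.64. Arg1, the arginase with which macrophages deplete arginine (GRCm38, chromosome 10, 24915221 to 24927484), had the most negative difference of all 9725 genes. It measured 0.801, 0.192 and 0.847 RPKM in the U87-MG group and 867, 1276 and 208 RPKM in the GL261 group, and the difference was -8.60 ± 0.82. Chil3, a chitinase-like protein, measured 6.82, 5.96 and 5.17 RPKM against 728, 983 and 194 RPKM. Ccl24 rested most on single samples, with 1.47, 1.58 and 1.26 RPKM against 242, 445 and 6.53 RPKM, so its difference of -5.26 ± 1.83 became -7.09 without GL261 replicate 3. It was also the lowest of its group in Arg1, Chil3, Pdcd1lg2 and Ccl17, and without it these differences were -9.39, -6.93, -6.05 and -4.82. The mannose receptor gene Mrc1 and the interleukin 4 receptor gene Il4ra, named after their values were seen, were not called, with differences of -0.51 and 0.18. Without GL261 replicate 3 Mrc1 was called lower, at -1.38. Cd163, the scavenger receptor, was the member called higher, at 1.01, and was not called without U87-MG column 1 (0.81), U87-MG column 3 (0.96) or GL261 replicate 3 (0.88).

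Among 16 checkpoint and co-stimulatory genes, 4 were called higher and 5 lower, with a median of 0.05, so differences ran in both directions. Cd274 (PD-L1) measured 8.06, 5.88 and 7.15 RPKM in the U87-MG group and 73.5, 124 and 107 RPKM in the GL261 group, a difference of -3.65 ± 0.25. Pdcd1lg2 (PD-L2) was lower as well, with at most 0.146 RPKM in the U87-MG group and at least 17.2 RPKM in the GL261 group. The co-stimulatory receptor gene Cd40 averaged 2.39 ± 0.537 RPKM and 41.2 ± 7.62 RPKM (SD, n = 3 each). In contrast Pdcd1, which encodes the receptor PD-1, measured 19.5, 30.1 and 24.4 RPKM in the U87-MG group and 1.66, 1.95 and 3.12 RPKM in the GL261 group, 10.99 times as much on average (difference 2.99 ± 0.26). Its naïve level was 1.502 ± 0.269 RPKM (SD, n = 3), and the GL261 group did not pass the test against naïve samples (0.25 ± 0.16, adjusted p = 0.167, limma). The other members called higher were Nectin2, Lag3 and Vsir, named after their values were seen, with differences of 2.12, 1.72 and 1.49.

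**Figure D4:**
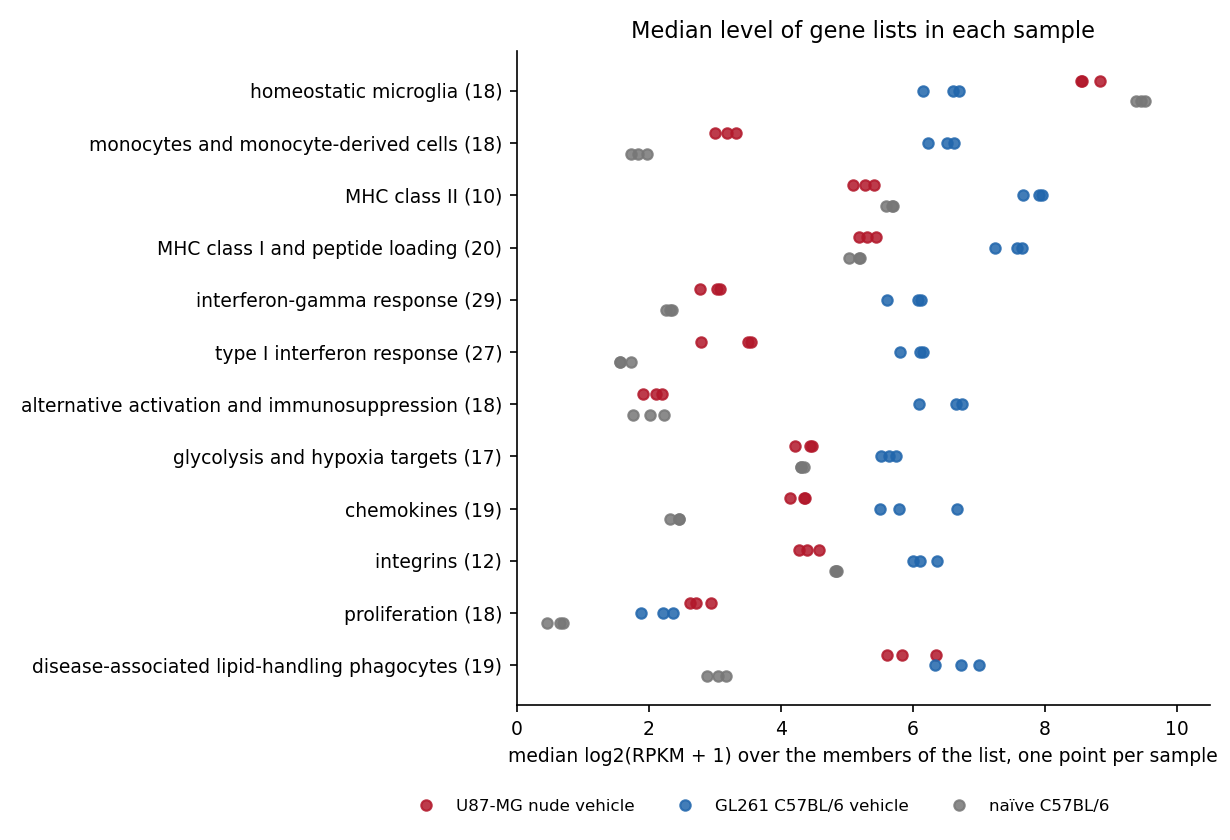
Median log2(RPKM + 1) over the members of 12 gene lists, one point per sample, for the U87-MG (red), GL261 (blue) and naïve C57BL/6 (gray) samples; the number of members is in brackets. In the interferon, MHC, monocyte and alternative activation lists the U87-MG samples lie nearer to the naïve than to the GL261 samples, and in the proliferation list both glioma groups lie above the naïve samples.

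Chemokine genes were called lower in 13 of 19 and higher in 4, with a median of -1.93. The 4 higher ones were Cxcl13, Cxcl14, Ccl12 and Ccl3, the last 3 named after their values were seen. Cxcl13, which draws B cells through CXCR5, measured 374, 40.4 and 52.3 RPKM in the U87-MG group and 2.64, 2.12 and 1.70 RPKM in the GL261 group. The first of the U87-MG columns set much of its difference of 4.91 ± 1.01, which was 3.91 without it and still called. Cxcl14 averaged 24.4 ± 8.10 RPKM and 1.54 ± 0.199 RPKM (SD, n = 3 each). Ccl12, a ligand of CCR2, measured 295, 481 and 402 RPKM against 162, 117 and 136 RPKM, a direction opposite to that of Ccl2 (-1.41) and Ccl7 (-2.24), ligands of the same receptor. Ccl17, which calls CCR4+ T cells, was lower with a difference of -4.15 ± 0.70. Of 8 chemokine receptor genes on the list, 5 were called lower and 1, Cx3cr1, higher. Cxcr4, a receptor that retains leukocytes in tissue, measured 20.4, 21.8 and 27.9 RPKM in the U87-MG group and 274, 269 and 264 RPKM in the GL261 group (difference -3.48 ± 0.13).

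Cytokine genes were called lower in 7 of 13 and higher in none, with a median of -1.19. Il1b, the inflammasome cytokine, measured 134, 143 and 134 RPKM in the U87-MG group and 458, 458 and 492 RPKM in the GL261 group, while the naïve mean was 15.5 ± 1.42 RPKM (SD, n = 3). Both glioma groups thus stood well above the naïve level. Osm, which encodes oncostatin M, had a difference of -2.68 ± 0.18, Il27 of -1.79 ± 0.17 and Il6 of -1.54 ± 0.26, the last from a GL261 mean of only 3.18 ± 1.18 RPKM (SD, n = 3). Tnf, named after its values were seen, was not called at 0.48, with 30.6 ± 6.75 RPKM and 21.2 ± 0.365 RPKM (SD, n = 3 each).

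Integrins are the receptors at which the study's RGD peptide is aimed, and 4 of their 12 genes were called higher, 5 lower and 3 not called, with a median of -0.23. Of the αv integrins that recognize the RGD sequence, Itgb5 measured 752, 772 and 658 RPKM in the U87-MG group and 226, 174 and 220.4 RPKM in the GL261 group, a difference of 1.82 ± 0.14. Itgb3 measured 16.8, 24.4 and 17.8 RPKM against 3.92, 2.11 and 3.22 RPKM, a difference of 2.34 ± 0.25. Their shared partner Itgav differed by only 0.38 ± 0.06 and was not called, with means of 16.3 ± 0.394 RPKM and 12.3 ± 0.904 RPKM, both under the naïve 30.3 ± 0.795 RPKM (SD, n = 3 each). Per kilobase, Itgb5 was thus the more abundant β chain in both groups. Itga6, a laminin receptor subunit, was higher with a difference of 2.56 ± 0.25. Lower in the U87-MG group, unlike Itgam, were the leukocyte subunits Itgax (CD11c), Itgal (CD11a) and Itgb7. Itgax averaged 20.3 ± 3.11 RPKM and 138 ± 13.7 RPKM, Itgal 15.01 ± 4.49 RPKM and 84.8 ± 15.9 RPKM, and Itgb7 4.80 ± 0.778 RPKM and 82.3 ± 16.3 RPKM (SD, n = 3 each).

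Ligands of these integrins split as well, with 1 called higher and 3 lower among 6. Spp1, which encodes osteopontin (GRCm38, chromosome 5, 104435118 to 104441050), measured 1400.0, 1289 and 1751 RPKM in the U87-MG group and 145, 68.2 and 80.2 RPKM in the GL261 group. It was 15.1 times as high in the U87-MG group (difference 3.97 ± 0.35), while naïve samples had 2.49 ± 0.341 RPKM (SD, n = 3). The GL261 group itself exceeded naïve samples by 4.62 ± 0.25 (adjusted p = 7.63e-07, limma), so the 3 groups formed a clear order. Mfge8, which encodes the bridging protein lactadherin, measured 4.95, 5.14 and 4.42 RPKM against 5.35, 5.96 and 3.68 RPKM and was not called, with a difference of -0.02 ± 0.18. Tgfbi and Thbs1 were lower, at 119, 135 and 169 RPKM against 1663, 1946 and 2004 RPKM and at 8.27, 11.1 and 11.2 RPKM against 216, 116 and 143 RPKM. Thrombospondin 1, the product of Thbs1, also activates latent TGF-β, and Tgfbi is itself a TGF-β-induced gene.

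**Figure D5:**
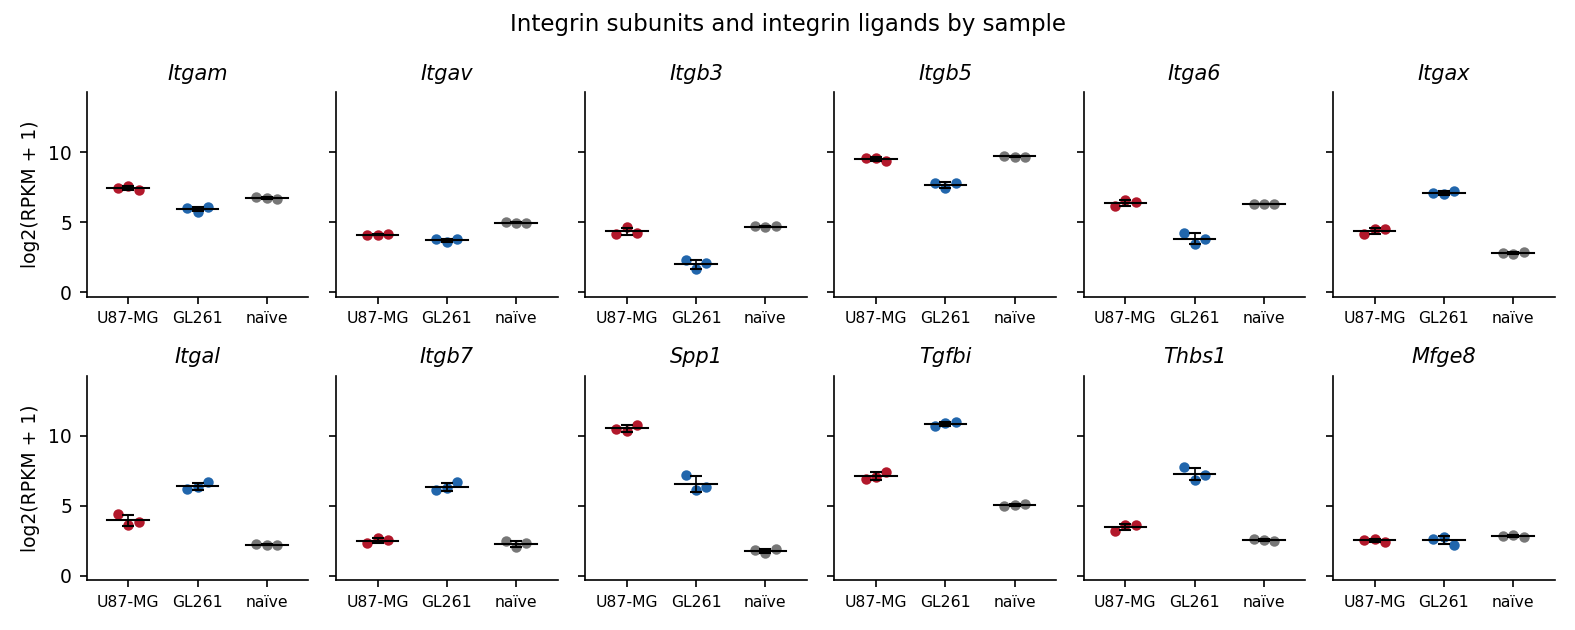
Levels of 8 integrin subunit genes and 4 integrin ligand genes in each sample, as log2(RPKM + 1), drawn as points with mean and SD for the U87-MG (red), GL261 (blue) and naïve C57BL/6 (gray) groups of 3 samples. Itgb3, Itgb5 and Itga6 are near the naïve level in the U87-MG group and lower in the GL261 group, Itgax, Itgal and Itgb7 are highest in the GL261 group, and Spp1 is highest in the U87-MG group.

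TGF-β pathway genes had 3 of 10 (2 to 4 with one sample left out) called higher and none lower, with a median of 0.24. Smad3, a signal transducer, averaged 33.5 ± 3.05 RPKM and 9.30 ± 1.98 RPKM (SD, n = 3 each). The receptor genes Tgfbr2 and Tgfbr1 were higher with differences of 1.40 ± 0.11 and 1.05 ± 0.15, the second close enough to the limit of 1 that it was not called without U87-MG column 2 or GL261 replicate 2. Of 21 lineage transcription factors, 5 were called higher and 5 lower. Runx3, Bhlhe40, the oxysterol receptor gene Nr1h3 and Egr2 were lower with differences of -3.41, -3.42, -3.62 and -2.78, whereas the myeloid master regulator Spi1 (PU.1), named after its values were seen, was not called at -0.61.

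Disease-associated, lipid-handling phagocyte genes differed in both directions, with 6 of 19 called higher, 5 lower and a median of -0.02. Gpnmb, a lysosomal glycoprotein of foamy macrophages, measured 0.989, 0.409 and 0.475 RPKM in the U87-MG group and 96.2, 117 and 113 RPKM in the GL261 group. Fabp5 and Lgals3 (galectin 3) were lower too, with differences of -4.36 ± 0.38 and -4.43 ± 0.07. Besides Spp1, the lipoprotein gene Apoe, named after its values were seen, was higher, with 10816, 6624 and 8254 RPKM in the U87-MG group and 4878, 2909 and 2383 RPKM in the GL261 group. Apoe was at 505 ± 67.4 RPKM in naïve samples (SD, n = 3). Clec7a is annotated as a polymorphic pseudogene and was not compared.

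Complement genes were called higher in 3 of 11 and lower in 4. The alternative pathway was lower in the U87-MG group, where C3 measured 29.4, 19.2 and 27.0 RPKM against 501, 821 and 425 RPKM in the GL261 group. Cfb (factor B) averaged 1.66 ± 0.190 RPKM and 59.9 ± 13.4 RPKM, and Cfp (properdin) 17.5 ± 3.83 RPKM and 120.3 ± 14.5 RPKM (SD, n = 3 each). Of 6 Fc receptor genes, 3 were called lower, among them the inhibitory receptor gene Fcgr2b (-2.86 ± 0.22) and the activating receptor gene Fcgr4 (-2.48 ± 0.18).

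Glycolysis and hypoxia target genes were lower in the U87-MG group, with 14 of 17 called lower, none higher and a median of -1.92. Slc2a1, the glucose transporter GLUT1, measured 20.9, 21.2 and 17.5 RPKM in the U87-MG group and 76.5, 95.6 and 109 RPKM in the GL261 group, and its naïve mean was 20.9 ± 0.597 RPKM (SD, n = 3). Vegfa, the angiogenic growth factor, averaged 1.48 ± 0.297 RPKM and 28.0 ± 2.54 RPKM (SD, n = 3 each). The phosphofructokinase gene Pfkp and the lipid droplet gene Hilpda had differences of -3.41 ± 0.11 and -2.12 ± 0.18. Of 13 sterol genes, 2 were called higher and 3 lower, beside 8.37% and 11.1% of all genes. Without GL261 replicate 2 only 1 was called higher. Insig1, a regulator of sterol synthesis, was lower (-1.21 ± 0.12) and Mylip, a ubiquitin ligase gene induced by oxysterols, higher (1.84 ± 0.13). Among 8 iron genes, 3 were called lower, including the ferritin gene Fth1 (-1.85 ± 0.13) and the haptoglobin gene Hp (-2.53 ± 0.25), and 1 higher, the iron exporter gene Slc40a1 (2.07 ± 0.24).

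None of the 18 proliferation genes that passed the filter was called, the median difference was 0.58, and 17 of 18 differences were above 0. Mki67, named after its values were seen, measured 5.09, 4.50 and 4.67 RPKM in the U87-MG group and 2.90, 5.22 and 2.65 RPKM in the GL261 group, which overlap, and 0.304 ± 0.0926 RPKM in naïve samples (SD, n = 3). Pcna, a replication clamp, averaged 36.6 ± 4.89 RPKM and 36.7 ± 1.77 RPKM (SD, n = 3 each), with a difference of -0.01 ± 0.12. Of 16 immediate early and dissociation stress genes, 4 were called lower and 1 higher, but 8 were called lower without U87-MG column 1 and 7 without GL261 replicate 3. Ier3 and Dusp1 were lower with differences of -3.31 ± 0.26 and -1.49 ± 0.29. Egr1 was higher with a difference of 1.16 ± 0.28, which was 0.95 and not called without GL261 replicate 3.

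The next lists hold marker genes of cells outside the CD11b gate. Which cells their RNA came from was not tested. Of 6 oligodendrocyte lineage genes that passed the filter, 3 were called lower, and these were the lineage factors Olig1, Olig2 and Sox10 rather than myelin genes. Of these, Olig2 did not pass the filter when any one GL261 replicate was left out, nor Sox10 without GL261 replicate 3, so that the count was 1 and the median -0.45 without replicate 3, against a median of -1.10 in all samples. Olig1 measured 0.670, 0.416 and 0.516 RPKM in the U87-MG group and 4.47, 2.90 and 5.29 RPKM in the GL261 group, and naïve samples had at most 0.281 RPKM. The whole list summed to 33.4 to 39.0 RPKM in the U87-MG group and 50.1 to 59.1 RPKM in the GL261 group. GL261 cells are murine, so their RNA counts in these values, whereas U87-MG RNA is human and was aligned to the mouse genome alone. The part of tumor RNA in the results was not tested. Astrocyte genes gave 1 call each way among 4, with Slc1a3 higher (1.45 ± 0.17) and Aldoc lower (-2.30 ± 0.13), and Gfap, not called, measured 3.77, 2.67 and 2.29 RPKM against 1.95, 3.04 and 2.12 RPKM. Vascular genes gave 1 higher and 2 lower among 5: Pdgfrb, a pericyte receptor that did not pass the filter without U87-MG column 2, averaged 2.27 ± 0.338 RPKM and 0.208 ± 0.0646 RPKM, and the VEGF receptor gene Flt1 0.388 ± 0.152 RPKM and 11.9 ± 5.93 RPKM (SD, n = 3 each). Kdr, the other VEGF receptor gene called, sat at the limit (-1.003 ± 0.12) and was not called without U87-MG column 1, GL261 replicate 2 or GL261 replicate 3. Hemoglobin genes were higher in the U87-MG group, with Hbb-bs at 19.8, 9.29 and 7.67 RPKM against 0.647, 2.41 and 1.51 RPKM. All neuron genes but Tubb3, which was not called at 0.12, stayed under the filter. Of the B cell genes annotated as protein-coding only Cd79b passed it (-0.55, not called).

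Several of the 10 highest and 10 lowest differences among called genes averaging 5 RPKM or more lay outside these lists; predicted genes were counted but not named. AA467197 measured 0.186, 0.174 and 0.197 RPKM in the U87-MG group and 150.2, 209 and 257 RPKM in the GL261 group. Slfn1, a Schlafen gene, averaged 1.38 ± 0.706 RPKM and 169 ± 26.3 RPKM (SD, n = 3 each). On the higher side, Ccr6, the receptor for CCL20, measured 135, 119.5 and 56.5 RPKM in the U87-MG group and at most 0.264 RPKM in the GL261 group, and its naïve mean was 0.780 ± 0.210 RPKM (SD, n = 3). Arsb, a lysosomal sulfatase, measured 424, 505 and 363 RPKM against 20.1, 15 and 21.0 RPKM, and Angptl7 26.9, 31.4 and 20.1 RPKM against 0.547, 0.122 and 0.315 RPKM. The scavenger receptor gene Colec12 averaged 25.7 ± 0.979 RPKM and 0.394 ± 0.217 RPKM (SD, n = 3 each). Tpm3-rs7 and Eno1b were higher with differences of 4.49 ± 0.26 and 4.18 ± 0.10. Both are sequence-related copies of other genes (Tpm3 and Eno1), so their reads are uncertain. Eno1 itself was lower, at 42.6 ± 3.19 RPKM against 164 ± 10.98 RPKM (SD, n = 3 each).

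Genes known to differ between mouse stocks were examined apart. All 3 that passed the filter were called higher in the U87-MG group. Ifi202b, an interferon-inducible gene that C57BL/6 mice barely express, measured 23.2, 27.6 and 37.2 RPKM in the U87-MG group and at most 0.0236 RPKM in the GL261 and naïve samples. Wdfy1 and Glo1 had differences of 2.29 ± 0.04 and 1.03 ± 0.11, and Glo1 was not called without U87-MG column 1. Nnt, which carries a deletion in C57BL/6J mice, was at most 0.0645 RPKM in the U87-MG group and 0.171 RPKM in naïve samples. It lay under the filter and close to the floor in both, so it does not set these groups apart. H2-Ea-ps, the class II Eα gene that C57BL/6 mice do not transcribe, measured 29.1, 43.6 and 41.7 RPKM in the U87-MG group and at most 0.0562 RPKM in the GL261 group; it is annotated as a pseudogene, was not among the genes compared, and is named after its values were seen. Spint1, a serine protease inhibitor gene outside this list (GRCm38, chromosome 2, 119237362 to 119249527), was among the 10 lowest. It measured 0.0858, 0.102 and 0.00969 RPKM in the U87-MG group, 106, 115 and 134 RPKM in the GL261 group and 68.4, 68.1 and 63.6 RPKM in naïve samples. Both C57BL/6 groups thus stood above the U87-MG group. They also share one table, so the parts of strain and table cannot be told apart.

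The place of the naïve level was counted for all called genes, with naïve values scaled to the same reference. Of the 1083 genes called lower in the U87-MG group, the naïve mean was nearer to the U87-MG mean in 1034 (95.5%) and nearer to the GL261 mean in 49 (4.52%). Of the 814 genes called higher, it was nearer to the U87-MG mean in 669 (82.2%). The naïve samples share strain and table with the GL261 samples, not with the U87-MG samples. In the homeostatic microglia, monocyte, MHC class I and glycolysis lists, every called member had a naïve mean nearer to the U87-MG group (15 of 15, 16 of 16, 16 of 16 and 14 of 14), as did 24 of 25 interferon-γ genes, the exception being Irgm2. In the neutrophil list it was 1 of 6 and in the chemokine list 13 of 17.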

How the data were processed

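CD11b+ cells were sorted from tumor-bearing hemispheres, or from naïve brains, and their poly(A) RNA was sequenced from stranded libraries. According to the submitters' processing notes and the study's methods, reads were trimmed with Trimmomatic, aligned to the mouse genome mm10 with STAR, and counted per gene with HTSeq 0.11.1. Human sequence was not part of the reference. The deposited values are RPKM that the authors normalized for each table separately with NOISeq, plus a constant of 2. Because some deposited values lie below 2, a step after that normalization must have changed them. The effect on the spread between replicates was not tested. No read counts were among the files used, so depth is unknown and no counting interval is given.

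The constant was subtracted, negative results were set to 0, and the 6 samples were scaled by median of ratios over 8651 genes (factors 0.959 to 1.05). Groups came from the labels. The U87-MG columns share one name and carry no replicate number. Genes were annotated with GENCODE M21, which matched 98.7% of 54513 rows, and the 9725 protein-coding genes averaging 1 RPKM or more over the 6 samples were compared as log2(RPKM + 1). Clec7a, Cxcl11 and Mx2 are polymorphic pseudogenes in that annotation and were not compared. Across tables no test was run. Within the table of the GL261 and naïve samples, log2(RPKM + 1) was tested with limma 3.58.1 (empirical Bayes with trend, two-sided, Benjamini-Hochberg adjusted p under 0.05) in R 4.3.3. Both procedures were tested on simulated data. The placing of naïve samples on the scale of the 6 samples was chosen after the data were seen.

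Named genes were the 10 largest differences each way among genes averaging 5 RPKM or more, up to 4 called members of each list with the largest differences, and a fixed set of markers. Any other gene given by name was chosen after its values were seen. Among these are Ciita, H2-Oa, H2-Ob, B2m, Ifi44, Cd163, Gfap and Eno1. The comparison, members and gene lists were chosen with earlier results of these data known. Motifs were searched on both strands of RefSeq promoter windows. Alternatives covered scaling, pseudocount, filter, call rule, length adjustment, inclusion of treated samples and each sample left out. The 15 other columns of values in the tables entered only that alternative or the naïve reference. Naïve nude samples and the 28 day table were not used here. Some genes are not reported here.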

Additional observations from a re-analysis of the deposited data

How the results depend on the processing

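Counts of called genes depended on the call rule more than on the scaling. With a pseudocount of 5 in place of 1, 1024 genes were called, 368 higher and 656 lower in the U87-MG group. When genes had to average 5 RPKM or more, 510 genes were called higher. Without the minimum difference 7271 genes did not overlap, 3704 higher and 3567 lower, and with a difference of at least 2 the count was 607, 166 higher and 441 lower. The share of calls that were higher, 42.9%, was 48.3% without scaling between the tables, 47.3% after quantile normalization, 35.9% with the pseudocount of 5 and 27.3% with the difference of at least 2. Leaving out each sample in turn gave 1860 to 1977 called genes, 762 to 877 higher and 1050 to 1128 lower. In each case 14 lists of at least 3 members had a median of at least 1 in size, though not always the same lists. The oligodendrocyte median shrank to -0.84, -0.62 and -0.45 without GL261 replicates 1, 2 and 3. In its place came border-associated macrophages without replicate 1 (1.07) and neutrophils without replicates 2 and 3 (-1.001 and -1.27). Over all settings, 481 of 575 list medians moved by less than the spread between replicates, and 94 moved by more. Of the 33 lists with at least 3 members, 10 had medians of both signs over the settings, all with a median of at most 0.70 in size; among these were the NK cell, astrocyte, vascular, integrin, integrin ligand, complement, checkpoint and disease-associated phagocyte lists. Of 2009 values of named genes 1767 moved by less than that spread, and the 119 called genes kept their sign in every setting. The causes were not tested.

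In the comparison of GL261 with naïve samples, median-of-ratios scaling gave 3975 genes higher and 3909 lower in the GL261 group, against 3367 and 4690 in the values as deposited, so the excess of lower genes depended on the scaling. In the values as deposited 5286 of the genes averaging 5 RPKM or more passed, 2860 of them lower in the GL261 group, a smaller number because fewer genes were tested. Leaving out each sample gave 7613 to 7900 genes, 3217 to 3304 higher and 4392 to 4640 lower. For U87-MG against GL261, no paired analysis was possible because the U87-MG columns carry no replicate number. Between GL261 and naïve samples, same-numbered samples did not deviate together (r = -0.0434, 0.0175 and -0.0324 across genes), and a fit with the replicate number as a block passed 7951 genes, 3313 higher and 4638 lower. Low genes are limited most by the unknown depth and by the altered values near 0.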

Other observations

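Some called genes stood apart from both C57BL/6 groups at once. Of the 814 genes called higher in the U87-MG group 114 (14%) were also higher than the naïve samples by the same rule, and of the 1083 called lower 40 (3.69%) were also lower. Tumor, strain and table cannot be told apart for these genes either, since both reference groups share strain and table. Pianp, a ligand of the PILRα receptor, measured 44.0, 35.2 and 39.0 RPKM in the U87-MG group, 1.83, 1.91 and 1.07 RPKM in the GL261 group and at most 0.316 RPKM in naïve samples. Mxra8, known as an entry receptor of alphaviruses, measured 13.4, 14.7 and 9.82 RPKM against at most 0.293 RPKM in the GL261 group and 0.454 RPKM in naïve samples. Tsku, a secreted small leucine-rich protein gene, measured 4.29, 19.6 and 11.9 RPKM, and both other groups stayed at or under 0.311 RPKM.

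On the lower side, Ppfia4 measured 3.31, 3.83 and 2.37 RPKM in the U87-MG group, 33.0, 29.8 and 35.3 RPKM in the GL261 group and 71.8, 68.3 and 64.6 RPKM in naïve samples. Phgdh, the first enzyme of serine synthesis, measured 2.22, 4.43 and 2.99 RPKM against 14.5, 17.8 and 12.1 RPKM and 39.6, 37.8 and 36.5 RPKM. In both genes the GL261 group lay between the others. Coro2a, a coronin that binds actin, measured 0.550, 0.476 and 0.729 RPKM against 19.9, 18.1 and 20.7 RPKM, with 5.36, 4.92 and 4.52 RPKM in naïve samples. The receptor gene Tlr12 measured 8.22, 10.7 and 6.51 RPKM in the U87-MG group, 23.4, 26.5 and 31.0 RPKM in the GL261 group and 32.4, 33.2 and 33.4 RPKM in naïve samples. These genes were chosen for standing apart, so their values are a description.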
